A study of Homo sapiens with 11 samples.

Results

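Serine synthesis and the folate cycle were followed here through 9 enzyme genes, PHGDH, PSAT1, PSPH, SHMT1, SHMT2, MTHFD1, MTHFD2, MTHFD1L and ALDH1L2, picked by symbol from a table of 28152 gene symbols. All 9 were in the table, and all 9 passed the filter on low counts that left 16653 genes to be tested. RNA came from xenograft tumours grown in the mammary fat pad of female athymic nude mice from cells labelled BT-474, an established line of human breast cancer whose genotype is given as HR+/Her2+. Every animal carried an estrogen pellet (0.72 mg of β-estradiol, 90 days), and tumours qualified once larger than 95 mm3. The vehicle group (n = 6) received mannitol in water under the skin, and the treated group (n = 5) received 12 mpk of evexomostat (SDX-7320; the treatment field of the labels writes SDX-7230), an inhibitor of methionine aminopeptidase 2 (MetAP2), which removes the first methionine from new proteins. Doses were given every 4 days, and all libraries are labelled day 33. The question was how treated tumours differed from vehicle tumours in gene expression. The labels number the libraries but do not say in words that each number is a separate animal, so the p-values measure the spread between these libraries.

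Cells make serine from a glycolytic intermediate, 3-phosphoglycerate, in a short branch of glycolysis. PHGDH oxidises the intermediate, PSAT1 adds an amino group taken from glutamate, and PSPH removes the phosphate. Serine then feeds the folate cycle, which carries single carbons for purine, thymidylate and methionine synthesis. SHMT2 in mitochondria and SHMT1 in the cytosol split serine into glycine and a folate-bound carbon. In mitochondria MTHFD2 oxidises that carbon, MTHFD1L releases it as formate and ALDH1L2 oxidises it to carbon dioxide, and in the cytosol MTHFD1 takes formate back onto folate. The branch is known in breast cancer because PHGDH is amplified in some tumours, and several of these genes are textbook targets of the stress factor ATF4.

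The promoters of PHGDH, PSAT1, MTHFD2 and MTHFD1L are shown first, from 250 bases before to 50 bases after the annotated start. Sequences are those of RefSeq on GRCh38.p14, 5′ to 3′ on the strand of the gene, and the deposited counts, made on GRCh37/hg19 per the submitters' processing notes, hold no coordinates. RefSeq windows were matched for 6 of the 9 members, namely PHGDH, PSAT1, SHMT1, MTHFD1, MTHFD2 and MTHFD1L. Capitals mark 3 motifs searched on both strands, the CCAAT box (CCAAT), the E-box bound by MYC and related factors (CACGTG) and the C/EBP-ATF response element bound by ATF4 (TGATGNAAN). PHGDH and PSAT1 are successive steps of serine synthesis, and MTHFD2 is a mitochondrial folate enzyme. MTHFD1L is shown, from 1 of its start sites, as the only 1 of the 6 members searched that held the ATF4 element. It had 4 windows, and each of the others searched had 1.
PHGDH (chr1:119711684-119711983, plus strand): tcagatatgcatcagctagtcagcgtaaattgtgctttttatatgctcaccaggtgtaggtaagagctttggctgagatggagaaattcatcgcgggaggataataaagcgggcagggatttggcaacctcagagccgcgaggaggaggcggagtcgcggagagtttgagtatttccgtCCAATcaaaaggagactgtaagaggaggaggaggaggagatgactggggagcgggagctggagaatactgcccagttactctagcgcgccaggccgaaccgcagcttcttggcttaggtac
PSAT1 (chr9:78296875-78297174, plus strand): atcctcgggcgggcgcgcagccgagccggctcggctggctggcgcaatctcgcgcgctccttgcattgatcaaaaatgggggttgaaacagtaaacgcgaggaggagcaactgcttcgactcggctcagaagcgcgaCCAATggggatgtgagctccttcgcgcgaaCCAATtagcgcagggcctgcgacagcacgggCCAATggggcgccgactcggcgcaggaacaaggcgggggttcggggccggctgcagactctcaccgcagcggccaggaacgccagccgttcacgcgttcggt
MTHFD2 (chr2:74198365-74198664, plus strand): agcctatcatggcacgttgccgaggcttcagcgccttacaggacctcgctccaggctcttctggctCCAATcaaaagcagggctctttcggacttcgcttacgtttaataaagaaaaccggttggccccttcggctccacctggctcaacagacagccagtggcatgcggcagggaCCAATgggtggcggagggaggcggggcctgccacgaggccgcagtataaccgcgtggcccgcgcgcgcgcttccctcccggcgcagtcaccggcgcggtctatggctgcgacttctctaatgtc
MTHFD1L (chr6:150866236-150866535, plus strand): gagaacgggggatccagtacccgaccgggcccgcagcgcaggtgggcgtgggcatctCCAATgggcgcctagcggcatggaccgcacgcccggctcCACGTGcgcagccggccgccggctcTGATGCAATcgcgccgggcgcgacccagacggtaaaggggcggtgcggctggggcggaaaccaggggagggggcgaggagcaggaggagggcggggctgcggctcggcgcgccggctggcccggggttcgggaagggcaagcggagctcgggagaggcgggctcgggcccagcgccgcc

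With the start counted as 0, PHGDH had a CCAAT box from -71 to -67, and PSAT1 had such boxes beginning at -113, -83 and -52. RefSeq gives MTHFD1L 4 start windows, and from the start printed here an ATF4 element, TGATGCAAT, lay at -129 to -121 and an E-box at -154 to -149. The same copies lay in 2 overlapping windows, the element at 24 to 32 and -90 to -82 and the E-box at -1 to 4 and -115 to -110 from those starts, and the fourth window held none of the motifs. No motif overlapped another in the windows printed. MTHFD1 had an E-box from -15 to -10, and SHMT1 (not printed) had only CCAAT boxes among the motifs. Of 35116 windows of this length in the table, 34.6% held CCAAT, 7.26% the E-box and 3.61% the ATF4 element on either strand. The CRE motif (TGACGTCA) was also searched, with no match in the windows of the members and a match in 1.85% of all windows. A match is a run of letters and not a measured binding site.

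Library totals ranged from 22808033 to 39249329 counts, at which 3 counts equal 0.0764 to 0.132 RPM (reads scaled to the library total alone), a floor that covers counting error only. Vehicle replicate 001 stood apart. The share of counts in the 100 most abundant genes was 23.9% there and 16.2% to 17.9% elsewhere, and that in ribosomal protein genes was 13.5% there and 4.57% to 8.24% elsewhere. Results are therefore given with and without it. The 12 luminal and BT-474 markers summed to 350.2 to 756 RPM under vehicle and 488 to 656 RPM under evexomostat, most of it from the epithelial keratins KRT8 (333 and 330.4 RPM on average) and KRT18 (129 and 172 RPM). ERBB2, the HER2 gene, averaged 51.5 ± 15.3 RPM (SD, n = 6) under vehicle and 56.3 ± 3.14 RPM (SD, n = 5) under evexomostat, while ESR1, PGR, GRB7, CDH1 and KRT19 each averaged under 1.2 RPM in each group. KRT8 and KRT18 were thus high, at ranks 427 and 1395 of 28152 symbols by mean RPM, and ERBB2 was at rank 4614. GRB7, CDH1, KRT19 and the hormone receptor genes ESR1 and PGR were near 0. EPCAM averaged 2.60 and 3.56 RPM and FOXA1 1.03 and 1.08 RPM under vehicle and evexomostat. Whether these levels match the HR+/Her2+ genotype of the label was not tested, and the tumours are called by their label only. Of the marker lists for other cells, fibroblast genes summed to 392 to 2065 RPM under vehicle and 500.2 to 1124 RPM under evexomostat. Most of that came from the collagen genes COL3A1 (696 and 476 RPM on average) and COL1A1 (144 and 196 RPM). DCN, LUM and PDGFRA of the same list averaged at most 1.92 RPM in either group. Leukocyte genes summed to 71.1 to 122 and 89.8 to 111 RPM, endothelial genes to 9.13 to 23.2 and 10.04 to 14.8 RPM, and adipocyte genes to 0.345 to 1.90 and 0.315 to 2.86 RPM. Skeletal muscle genes summed to 4.48 to 21.7 RPM under vehicle and to 6.36 to 549 RPM under evexomostat, highest in evexomostat replicate 005. CDH5, ADIPOQ, LEP and MYL1 had at most 3 counts in any library. The part of host cells in the results was not tested, and in bulk tissue fewer cells of a type and less RNA per cell cannot be told apart.

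Of the 9 enzymes, 0 passed an adjusted p-value of 0.05 in edgeR's quasi-likelihood test with Benjamini-Hochberg adjustment over all tested genes, where 0.606% of tested genes passed. At an unadjusted p under 0.05 there was 1 enzyme, PHGDH, where 13.4% of tested genes passed. PHGDH was also the 1 enzyme whose groups did not overlap, against 2.97% of tested genes. Without vehicle replicate 001 it was again 1 enzyme, PHGDH, against 8.33% of tested genes. Log2 fold changes (evexomostat over vehicle) were above 0 for 6 enzymes and below 0 for 3, with a median of 0.32. Over all tested genes the median was -0.039 and 44.6% were above 0. PHGDH was called with DESeq2, another count test (3.92% of genes called), with limma-voom and sample quality weights (6.36%), with limma-trend on log2(RPM + 1) (0.444%) and on log2(RPM + 0.1) (0.408%), and in edgeR without vehicle replicate 001 (5.22%). SHMT2 was called with the quality weights, and the other 7 enzymes in none of the 20 alternatives.

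PHGDH, which commits carbon to serine, had the largest difference. The 5 evexomostat libraries were at 372, 383, 387, 404 and 473 CPM (reads scaled to the library size, with TMM factors), and the 6 vehicle libraries ran from 152 through a median of 261 to 312 CPM. The lowest evexomostat library lay above the highest vehicle library. Means were 243 ± 65.0 CPM (SD, n = 6) under vehicle and 404 ± 40.1 CPM (SD, n = 5) under evexomostat. The log2 fold change was 0.73 (SE 0.19, 95% interval 0.33 to 1.14), a ratio of 1.66 (1.26 to 2.198), which placed it at percentile 97.6 of all tested genes. The edgeR adjusted p was 0.0992, and the exact two-sided permutation test gave p = 0.00433, unadjusted and the smallest it can give. Without vehicle replicate 001, at 296 CPM the second highest of its group, the log2 fold change was 0.80 with an edgeR adjusted p of 0.0300. Across the fits that each left out 1 library it ranged from 0.63 to 0.82, with edgeR adjusted p-values from 0.0300 to 0.239. In those fits 1 to 865 of all tested genes passed, against 101 with all 11 libraries.

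PSAT1, the aminotransferase of the next step, had a difference near 0. Its evexomostat libraries were at 188, 199.98, 232, 236 and 276 CPM, within the vehicle span of 177 to 342 CPM around a median of 213 CPM. Vehicle replicate 003 was the highest of all libraries, and evexomostat replicate 003 the highest of its group. Its log2 fold change was -0.024 (SE 0.18, 95% interval -0.41 to 0.37, edgeR adjusted p 0.977). As a ratio the interval ran from 0.751 to 1.29.

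PSPH, the phosphatase that finishes serine synthesis, was less abundant. The vehicle libraries ran from 19.8 through 24.5 to 40.1 CPM, and the evexomostat libraries were at 26.1, 30.8, 31.1, 40.5 and 44.6 CPM. All 5 treated libraries lay above the vehicle median, but vehicle replicate 001 held the vehicle maximum and 3 of the treated libraries lay below it. PSPH had a log2 fold change of 0.34 (SE 0.20, 95% interval -0.095 to 0.78, edgeR adjusted p 0.507), and 0.49 without vehicle replicate 001 (edgeR adjusted p 0.115).

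**Figure D1:**
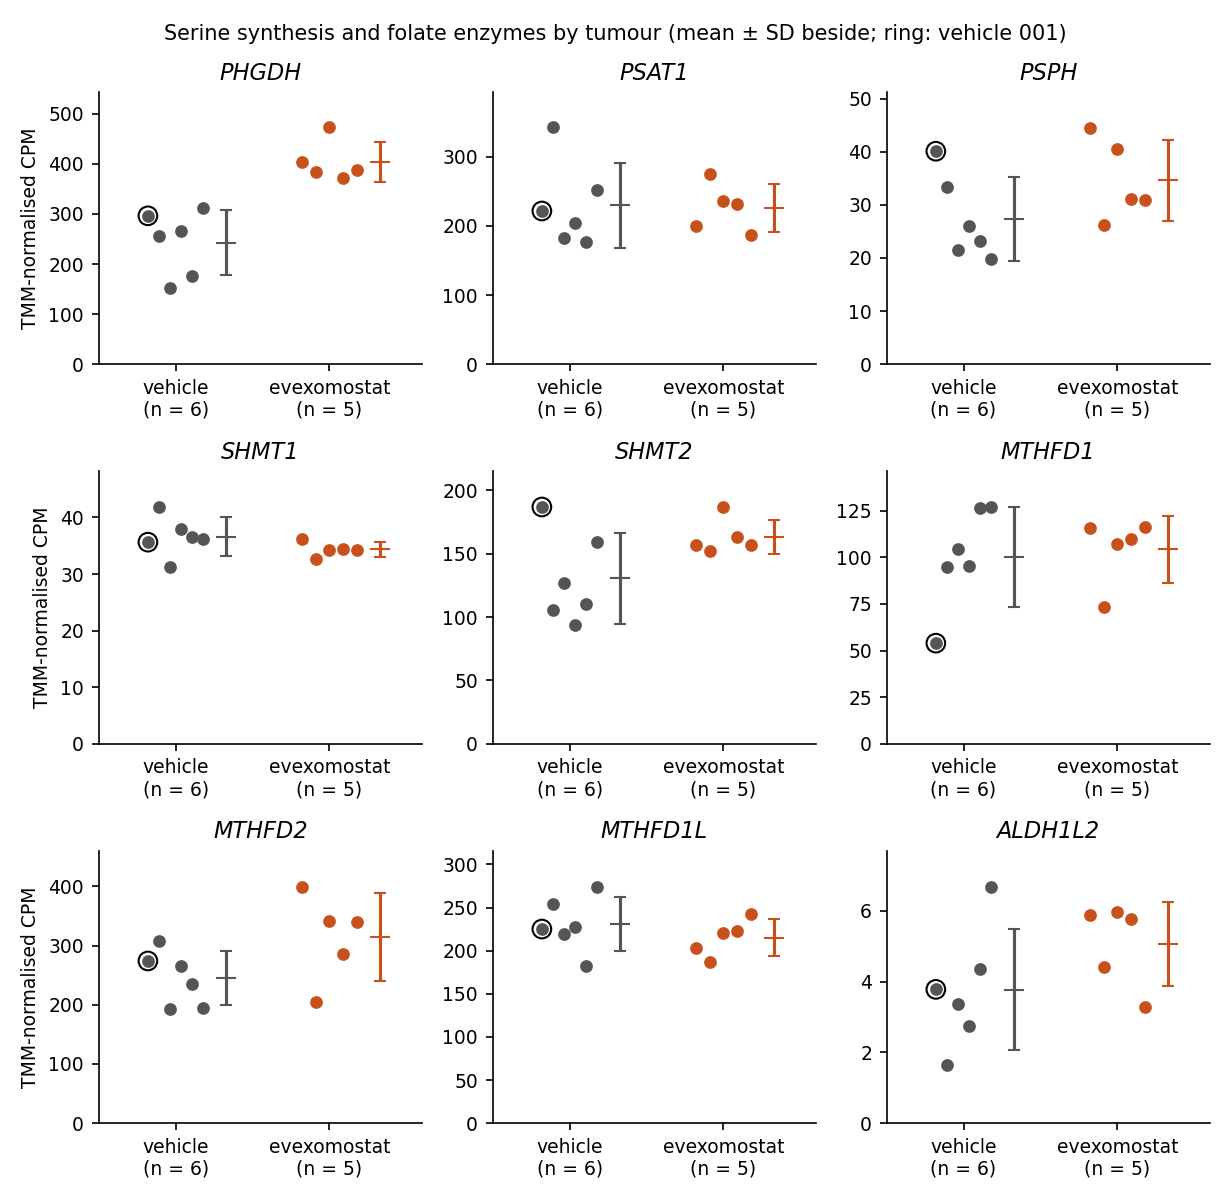
TMM-normalised CPM of the 9 enzymes in each library, vehicle (grey, n = 6) and evexomostat (orange, n = 5), with the group mean ± SD beside the points and a ring around vehicle replicate 001. PHGDH separates the groups (152 to 312 CPM against 372 to 473 CPM), and the other 8 enzymes overlap.

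SHMT2, the mitochondrial serine hydroxymethyltransferase, was at 152, 157, 157, 163 and 187 CPM under evexomostat and at 93.5 to 187 CPM, with a median of 119 CPM, under vehicle. Vehicle replicate 001 was the highest of all 11 libraries, and vehicle replicate 007 was the only other vehicle library that reached the treated range. Means were 130.5 ± 35.9 CPM (SD, n = 6) and 163 ± 13.7 CPM (SD, n = 5). In edgeR the log2 fold change was 0.32 (SE 0.17, 95% interval -0.053 to 0.70, edgeR adjusted p 0.457, exact permutation p 0.0823). Without vehicle replicate 001 it was 0.46 (SE 0.13, edgeR adjusted p 0.0656, exact permutation p 0.0317, unadjusted).

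SHMT1, its cytosolic counterpart, was the steadiest member. Vehicle libraries ran from 31.3 through 36.4 to 41.9 CPM, and evexomostat libraries were at 32.7, 34.2, 34.2, 34.4 and 36.3 CPM. The coefficient of variation was 9.35% under vehicle and 3.72% under evexomostat, the lowest of the 9 enzymes in each group. Its fitted log2 fold change was -0.091 (SE 0.10, 95% interval -0.32 to 0.14, edgeR adjusted p 0.780), and limma-trend on log2(RPM + 0.1), with no TMM scaling, gave 0.010.

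MTHFD2, the mitochondrial dehydrogenase and cyclohydrolase, averaged 245 ± 46.0 CPM (SD, n = 6) under vehicle and 314 ± 73.8 CPM (SD, n = 5) under evexomostat. Its treated libraries were at 204, 285, 340.2, 342 and 399.9 CPM, and its vehicle libraries ran from 193 through 249.5 to 308 CPM. The top 3 treated libraries lay above every vehicle library, while evexomostat replicate 003 lay near the vehicle minimum. That gave a log2 fold change of 0.36 (SE 0.18, 95% interval -0.036 to 0.76, edgeR adjusted p 0.425), and 0.48 without evexomostat replicate 003 (edgeR adjusted p 0.256). Leaving out the lowest treated value raises the difference by construction.

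MTHFD1L, the mitochondrial formate-releasing enzyme, was at 187, 203, 221, 223 and 243 CPM under evexomostat and at 183 to 274 CPM, with a median of 226 CPM, under vehicle. Its treated values fell inside the vehicle range. MTHFD1L had a log2 fold change of -0.10 (SE 0.13, 95% interval -0.38 to 0.18, edgeR adjusted p 0.809).

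ALDH1L2, a mitochondrial formyl-folate dehydrogenase, was the least abundant member, with 64 to 190 counts per library. Its vehicle libraries ran from 1.65 through 3.58 to 6.69 CPM, and its evexomostat libraries were at 3.30, 4.41, 5.76, 5.90 and 5.98 CPM. Vehicle replicate 007 was the highest of all, and without it the log2 fold change went from 0.43 (SE 0.31, 95% interval -0.23 to 1.09, edgeR adjusted p 0.610) to 0.67 (edgeR adjusted p 0.346, exact permutation p 0.0476, unadjusted).

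MTHFD1, the cytosolic enzyme that takes up formate, was at 73.2, 107, 110.0, 116 and 117 CPM under evexomostat. Vehicle libraries ran from 54.0 through 100.05 to 127 CPM, with vehicle replicate 001 the lowest of all 11. MTHFD1 had a log2 fold change of 0.057 (SE 0.20, 95% interval -0.38 to 0.50, edgeR adjusted p 0.943), and it was -0.064 without vehicle replicate 001.

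**Figure D2:**
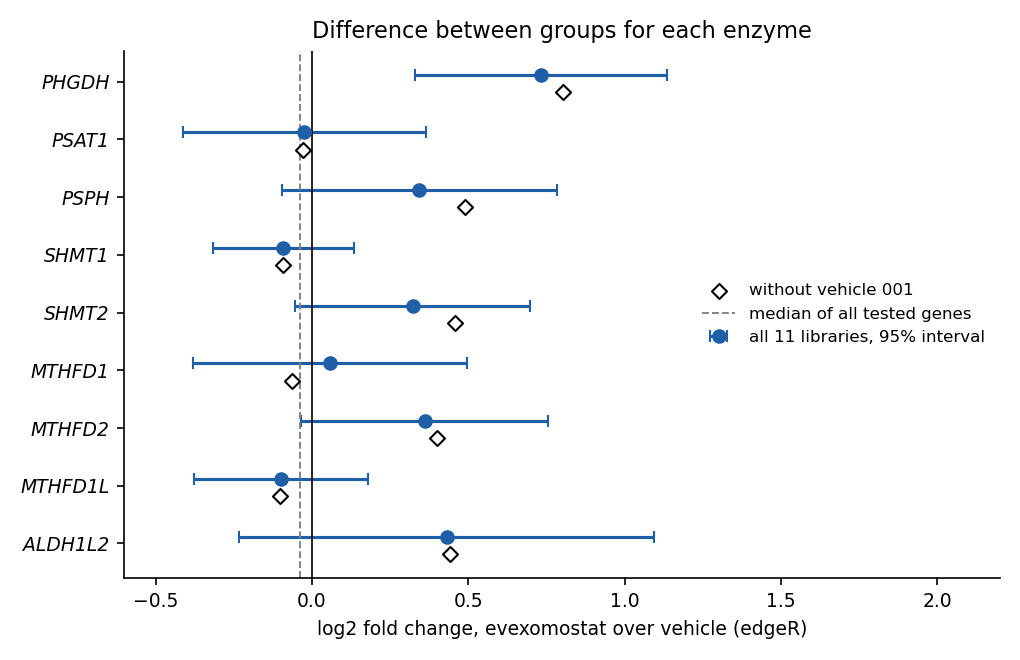
Log2 fold change of each enzyme, evexomostat over vehicle, from edgeR with all 11 libraries (blue, 95% interval) and without vehicle replicate 001 (diamond); the dashed line is the median of all tested genes. PHGDH is at 0.73 with an interval of 0.33 to 1.14, and the intervals of the other 8 enzymes include 0.

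Count ratios within a library do not depend on how libraries are scaled to one another, and they are given as a description with no test. SHMT2 had 4.33 to 5.46 counts per SHMT1 count in the evexomostat libraries and 2.46 to 5.25 in the vehicle libraries, a mean log2 difference of 0.45. Vehicle replicate 001 set the upper end under vehicle, and without it the difference was 0.57. MTHFD2 had 2.60 to 3.45 counts per MTHFD1 count under evexomostat and 1.53 to 5.08 under vehicle, again with vehicle replicate 001 highest. That difference was 0.26, and 0.46 without this library. MTHFD1L had 1.75 to 2.55 counts per MTHFD1 count under evexomostat and 1.45 to 4.17 under vehicle, a difference of -0.18 that shrank to -0.020 without vehicle replicate 001. The ratio of PHGDH to PSAT1, chosen after the values were seen, was 1.39 to 2.06 under evexomostat and 0.750 to 1.34 under vehicle, without overlap. Its difference of 0.78 was 0.85 without vehicle replicate 001.

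**Figure D3:**
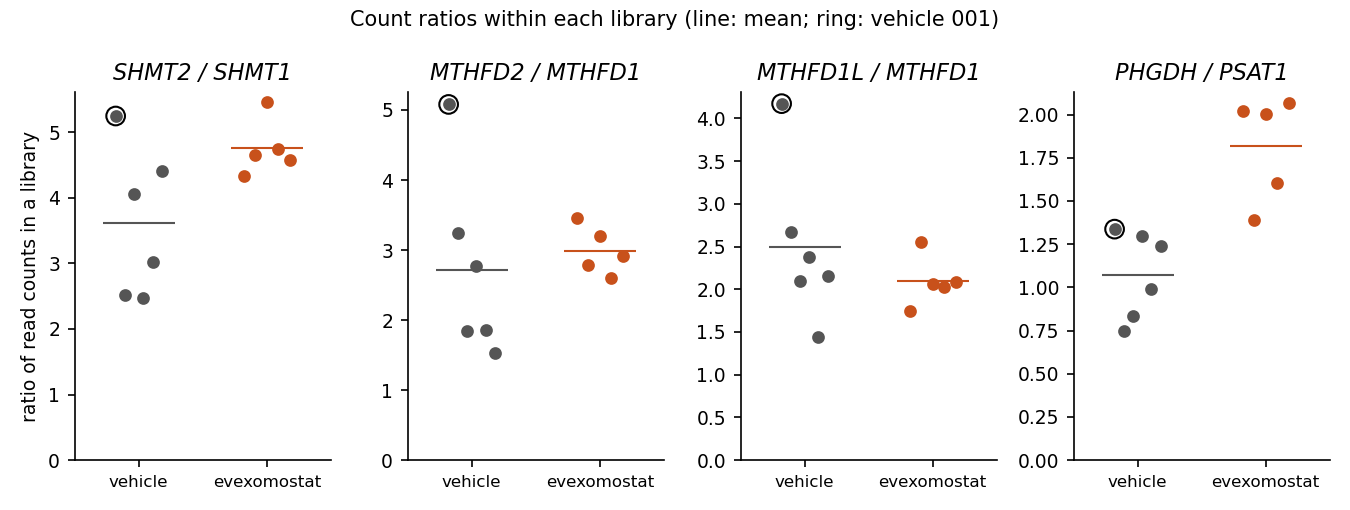
Ratio of read counts between pairs of enzymes in each library, vehicle (grey) and evexomostat (orange), with the mean as a line and a ring around vehicle replicate 001. PHGDH to PSAT1 separates the groups (0.750 to 1.34 against 1.39 to 2.06), and the ring is the top vehicle point in all 4 panels.

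Levels were compared between genes as CPM per kilobase of the median GENCODE 29 transcript. Under vehicle MTHFD1L had the highest mean at 288 ± 39.2 CPM per kilobase (SD, n = 6), followed by PHGDH at 235 ± 62.9, MTHFD2 at 193 ± 36.3, SHMT2 at 156 ± 42.9, MTHFD1 at 137 ± 36.5 and PSAT1 at 128 ± 34.2. Each of these differed from the next by less than the larger of their SDs. PSPH at 36.8 ± 10.6, SHMT1 at 22.1 ± 2.07 and ALDH1L2 at 1.37 ± 0.622 CPM per kilobase were lower than all of these. Under evexomostat PHGDH was first at 391 ± 38.8 CPM per kilobase (SD, n = 5) and MTHFD1L second at 269 ± 26.6. The order rests on the length used: per kilobase of the longest transcript PSAT1 was first under vehicle and PHGDH second, while PSPH, SHMT1 and ALDH1L2 were still the last 3. Exons of SLC4A5 overlap those of MTHFD2 on the opposite strand by up to 1324 bases in GENCODE 29. ZBTB25 overlaps MTHFD1, SMCR8 overlaps SHMT1, NDUFA4L2 overlaps SHMT2 and C12orf45 overlaps ALDH1L2, also on the opposite strand. Whether counting used strand is not given in the sources used here, so reads of such neighbours cannot be told apart. The pseudogene MTHFD2P1 had at most 4 counts in any library.

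Over 36 pairs of members the median correlation of log2 CPM, taken as deviations from the group mean over 11 libraries, was 0.17, and 24 pairs were above 0. PSPH and MTHFD2 were the closest pair (r = 0.83, rho = 0.90, and r = 0.89 without vehicle replicate 001). PHGDH and PSAT1 had r = 0.51 (rho = 0.51). PSPH and MTHFD1 had r = -0.44, which was 0.0029 without vehicle replicate 001. Among 13067 tested genes with a mean log2 CPM of at least 1, those most like PHGDH were LITAF (r = 0.92, rho = 0.91), AUH (r = 0.90, rho = 0.75), PEPD (r = 0.89, rho = 0.76), DHRS13 (r = 0.89, rho = 0.82) and PPM1B (r = 0.87, rho = 0.70). Likeness was measured on deviations from the group means, and the log2 fold changes of these genes between the groups were below 0, from -0.053 for PPM1B to -0.73 for DHRS13. With the outermost PHGDH libraries, vehicle replicates 004 and 006, left out, r was 0.90 for LITAF, 0.63 for AUH and 0.61 for PPM1B. These correlations describe shared libraries and carry no p-value, since the genes were taken as the highest of many.

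The rest of the pathway was read from lists of neighbouring steps. Among 21 other folate enzymes, all tested, 0 passed in either direction, the median log2 fold change was -0.13 and 8 were above 0. At an unadjusted p under 0.05 there were 1 higher and 2 lower, DESeq2 called 1 higher, and limma-voom with quality weights called 1 higher and 1 lower. Over all genes these shares were 13.4%, 3.92% and 6.36%, in either direction. GLDC, the glycine decarboxylase that also loads folate in mitochondria, ranked first by p-value in this list. Its level was 23.8 ± 6.804 CPM (SD, n = 6) and 38.6 ± 4.48 CPM (SD, n = 5), and log2 fold change 0.70 (SE 0.20) with an edgeR adjusted p of 0.135. Its 5 treated libraries lay above all vehicle libraries, where 2.97% of tested genes did not overlap in either direction. Without vehicle replicate 001 the edgeR adjusted p of GLDC was 0.0453, where 5.22% of all genes were called. Of 6 folate carriers and receptors 4 were tested, and 0 passed; at an unadjusted p under 0.05, with DESeq2 and with quality weights there were also 0, and SLC19A1, the reduced folate carrier, ranked first (log2 fold change 0.28, edgeR adjusted p 0.421).

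Of 12 genes of serine and glycine transport 10 were tested, with a median log2 fold change of 0.35; 7 were above 0. In edgeR 0 passed, and 5 were higher at an unadjusted p under 0.05 (13.4% of all tested genes in either direction); DESeq2 called 3 (3.92% of all) and limma-voom with quality weights 5 (6.36% of all), all higher. SFXN2, a mitochondrial carrier of the sideroflexin family, was at 5.80 ± 1.91 CPM (SD, n = 6) and 11.1 ± 1.95 CPM (SD, n = 5), with a log2 difference of 0.93 (SE 0.24) and an edgeR adjusted p of 0.0992. The other family members of the list, SFXN1 and SFXN3, were more abundant and went the other way. SFXN1 averaged 240 and 207 CPM (log2 fold change -0.21, edgeR adjusted p 0.612) and SFXN3 81.3 and 74.9 CPM (log2 fold change -0.12, edgeR adjusted p 0.883). SLC6A9, a glycine transporter, and SLC1A4, a neutral amino acid transporter that carries serine, were singled out after their values were seen. Their log2 fold changes were 1.05 (SE 0.29, edgeR adjusted p 0.127) and 0.76 (SE 0.21, edgeR adjusted p 0.126). SFXN2, SLC6A9 and SLC1A4 each had 5 treated libraries above all vehicle libraries, where 2.97% of tested genes did not overlap in either direction. Without vehicle replicate 001 their edgeR adjusted p-values were 0.0491, 0.0213 and 0.0429, where 5.22% of all genes were called.

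Among 17 genes that use serine or glycine, 15 were tested and 1 passed, where 0.606% of all tested genes passed. CBS, which condenses serine with homocysteine, rose from 9.41 ± 1.69 CPM (SD, n = 6) to 21.1 ± 3.39 CPM (SD, n = 5), by 1.16 on the log2 scale (SE 0.16), with an edgeR adjusted p of 0.0138. Its 5 treated libraries lay above all vehicle libraries, where 2.97% of tested genes did not overlap in either direction. Without evexomostat replicate 002, 005 or 007 the edgeR adjusted p of CBS was 0.0525, 0.0558 and 0.0587, where 2, 1 and 3 of all tested genes passed. Its log2 fold change in those fits was 1.07, 1.22 and 1.19. The median of these 15 genes was -0.020, with 7 above 0. At an unadjusted p under 0.05 there were 4 higher and 2 lower, and DESeq2 called 1 and limma-voom with quality weights 3, all higher. Of 26 genes headed by ATF4 and its targets, all tested, 1 passed, with a median of 0.16 and 17 above 0. At an unadjusted p under 0.05 there were 7 higher and 1 lower, and DESeq2 called 4 and limma-voom with quality weights 6, all higher. Beside both lists, the shares over all genes were 13.4% at an unadjusted p under 0.05, 3.92% with DESeq2 and 6.36% with quality weights. PYCR1, an enzyme of proline synthesis, rose from 31.5 ± 5.06 CPM (SD, n = 6) to 62.5 ± 19.5 CPM (SD, n = 5), by 0.99 on the log2 scale (SE 0.19), with an edgeR adjusted p of 0.0412. With any 1 library other than vehicle replicate 001 or evexomostat replicate 003 left out, the edgeR adjusted p of PYCR1 was above 0.05, up to 0.135. In those fits 1 to 79 of all tested genes passed. The log2 fold change of PYCR1 ran from 0.80 to 1.10 with any 1 library left out. Without vehicle replicate 001, 6 genes of this list passed, all higher, where 5.22% of all genes were called. ATF4 itself, named after its values were seen, was at a log2 difference of 0.27 (SE 0.14), with an edgeR adjusted p of 0.447. SLC6A9 and CTH stand in more than 1 of these lists.

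Around the branch point, 12 glycolysis genes had a median log2 fold change of -0.33 and all 12 were below 0, where 44.6% of tested genes were above 0. PGAM1 and ENO1 of this list act after 3-phosphoglycerate and do not feed the branch. In edgeR 0 passed and 4 were lower at an unadjusted p under 0.05, where 13.4% of tested genes passed in either direction. DESeq2 called 0 (3.92% of all genes) and limma-voom with quality weights 2 (6.36% of all genes), both lower. Without vehicle replicate 001 edgeR called 3, all lower, where 5.22% of all genes were called. PGK1, which makes the intermediate that PHGDH uses, ranked first by p-value there (log2 fold change -0.56, SE 0.18, edgeR adjusted p 0.191). Among 10 other known regulators of these genes 9 were tested, with a median of -0.26, and 0 passed in edgeR. At an unadjusted p under 0.05 there were 1 higher and 3 lower, and DESeq2 called 1 and limma-voom with quality weights 2, all lower. HIF1A, a hypoxia factor, was at 164 ± 87.1 CPM (SD, n = 6) and 63.4 ± 15.8 CPM (SD, n = 5), with a log2 difference of -1.37 (SE 0.40) and an edgeR adjusted p of 0.141. Without vehicle replicate 001 the edgeR adjusted p of HIF1A was 0.00873, where 5.22% of all genes were called. Genes of S phase and mitosis, with which folate enzymes often move, had a median of 0.021 over 15 tested genes; in edgeR 0 passed and 0 had an unadjusted p under 0.05, DESeq2 called 0 and limma-voom with quality weights 1, and MCM5 ranked first (log2 fold change 0.25, edgeR adjusted p 0.433).

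**Figure D4:**
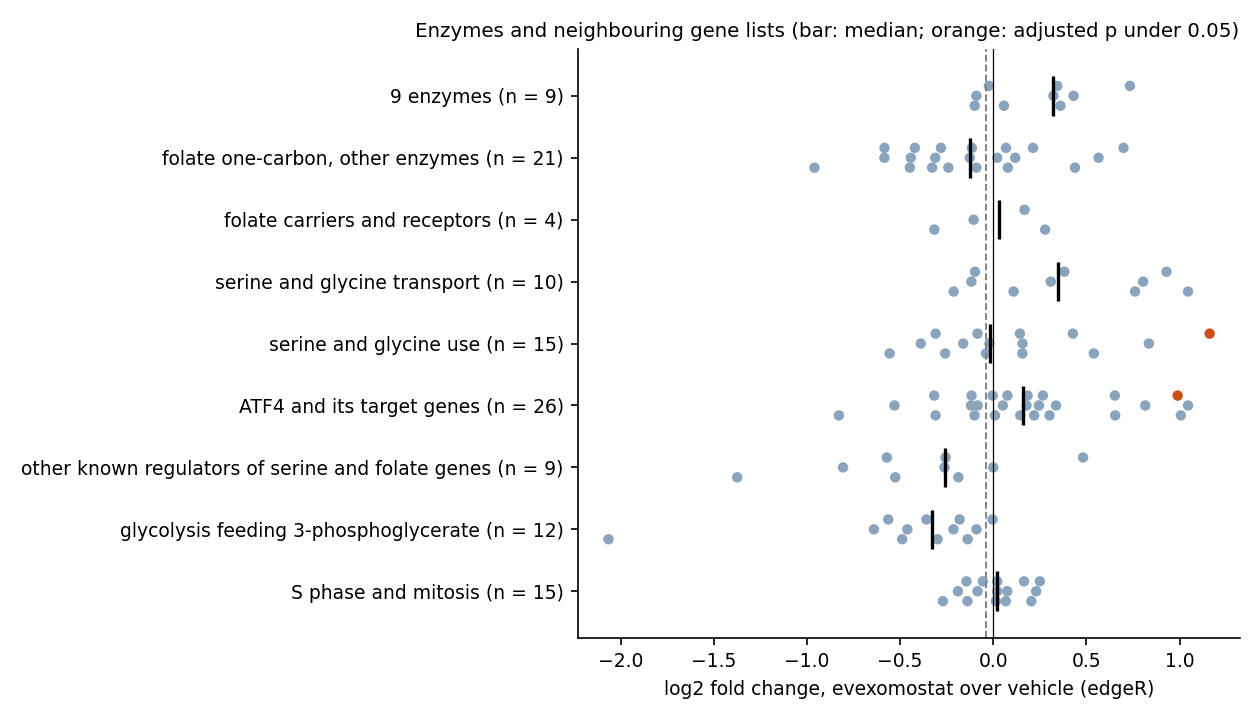
Log2 fold change, evexomostat over vehicle in edgeR, of each tested gene in the 9 enzymes and 8 neighbouring lists; black bars are list medians, orange points passed an adjusted p of 0.05 (CBS and PYCR1), and the dashed line is the median of all tested genes. The enzymes have a median of 0.32, transporters 0.35 and glycolysis genes -0.33.

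The authors' deposited table gives PHGDH a log2 fold change of 0.84 and an adjusted p of 0.00425, the 1 enzyme of the 9 under 0.05 there, where 268 of 28152 symbols (0.952%) were. In the authors' deposited table SHMT2, MTHFD2 and PSPH have log2 fold changes of 0.43, 0.45 and 0.45 with adjusted p-values of 0.397, 0.421 and 0.531. Log2 fold changes in the authors' deposited table were higher than those of the edgeR fit by a median of 0.093 over all tested genes.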

How the data were processed

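RNA from 6 vehicle and 5 evexomostat tumours was sequenced, and libraries were grouped and numbered by their titles; columns were matched by the code in the sample description. The authors' deposited counts are whole reads per gene symbol, and their deposited RPM values are those counts scaled to the library total (largest difference 2.3e-13). Per the submitters' processing notes, bcl2fastq 2.17, STAR 2.7.5c, featureCounts and edgeR were used with GRCh37/hg19; which annotation was counted, whether strand was used and how reads of mouse cells were treated is not given in the sources used here. The authors' deposited comparison table holds log2 fold changes and p-values, and how it was fitted is not given in the sources used here.

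Genes with at least 10 counts by filterByExpr (minimum total 15) were kept, 16653 of 28152 symbols. Counts were scaled with TMM and tested with edgeR 4.0.16 (quasi-likelihood, R 4.3.3), and p-values were adjusted over all tested genes by Benjamini-Hochberg at 0.05. The standard error is that implied by the F statistic, and intervals use 95% and edgeR's 13.3 degrees of freedom. Exact permutation tests of mean log2 CPM (prior count 2) were two-sided. Alternatives were 2 other scalings, DESeq2 1.42.0, limma 3.58.1 (voom with quality weights, and trend on log2(RPM + 1) and log2(RPM + 0.1)), no filter, a replicate block and leaving out each library. The edgeR, DESeq2, limma-voom and limma-trend tests, the last on log2(RPM + 1) only, were tested on simulated counts with known answers. The permutation test was tested on a constructed case of fully separated groups. The named genes are the 9 enzymes, list genes past the threshold and the gene with the smallest p-value in each list, beside the 5 genes most like PHGDH and the 5 most like the mean of the enzymes. SLC6A9, SLC1A4, SFXN1, SFXN3 and ATF4 fall outside this rule and were named after their values were seen. The members and lists were chosen with earlier results of these data known.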

Additional observations from a re-analysis of the deposited data

Results flagged for a closer look

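MTHFD1 in evexomostat replicate 003 was flagged because it lay far below the rest of its group, at 73.2 CPM against 107 to 117 CPM in the other 4 libraries. Of 24 groups of values examined at either end (the 9 enzymes and 3 count ratios in each group) this was the only one flagged, where about 1.2 would be by chance. The same library was also the lowest of its group in CPM for PSPH, SHMT1, SHMT2, MTHFD2 and MTHFD1L, and the highest for PSAT1. It had the smallest total of the 11 libraries, 22808033 counts, and the largest TMM factor, 1.08. Of the 8 neighbouring gene lists, 5 also had their lowest mean log2 CPM among the evexomostat libraries in this one: S phase and mitosis (6.90 against 7.31 to 7.47), glycolysis (7.998 against 8.38 to 8.62), serine and glycine transport (5.18 against 5.29 to 5.59), other folate enzymes (4.33 against 4.36 to 4.45) and serine and glycine use (4.26 against 4.27 to 4.50). Their part in the MTHFD1 value was not tested. Without this library the log2 fold change of MTHFD1 was 0.16.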

How the results depend on the processing

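The cause of each change below was not tested. The number of enzymes past the threshold, 0 in the main comparison, was 1 with DESeq2 and with either RPM pseudocount and 2 with quality weights, and ranged from 0 to 1 across the 11 fits that each left out 1 library. The 2 list genes past the threshold became 9 with DESeq2, 20 with quality weights and 12 in 8 libraries with no replicate block, and ranged from 0 to 16 with 1 library left out, lowest without evexomostat replicate 002, 005 or 007 and highest without vehicle replicate 001. Over all tested genes, 101 passed in the main fit, 649 with DESeq2, 1059 with quality weights and 733 of 16588 with no replicate block. Without evexomostat replicate 002, 005 and 007 only 2, 1 and 3 of all tested genes passed, and without vehicle replicate 001 it was 865 of 16565. The list counts thus moved with those over all genes. The numbers 003, 004, 005 and 007 occur in both groups, and the labels do not say whether same-numbered libraries share anything else. Their deviations had correlations of -0.27, 0.066, 0.049 and -0.0998. These cannot decide it, since libraries can share handling without deviating together. Fitted with a replicate block, those 8 libraries gave 0 enzymes and 3 list genes past the threshold, where 107 of 16588 genes passed, and for PHGDH an edgeR adjusted p of 0.148. Log2 fold changes turned for 4 enzymes with no call in any setting. PSAT1 was at 0.033 with upper quartile scaling and 0.098 and 0.097 with RPM pseudocounts of 0.1 and 1, and from -0.10 to 0.12 with 1 library left out. SHMT1 was at 0.010 and 0.0097 and MTHFD1L at 0.0025 and 0.0025 with those pseudocounts, which moved the median of all genes from -0.039 to 0.098 and 0.075. Of all genes, 29 passed as higher and 72 as lower, against 38 and 30 and 43 and 31 with those pseudocounts and 28 and 42 with upper quartile scaling. MTHFD1 was at -0.073 with the replicate block, -0.060 with no replicate block, and from -0.064 to 0.16 with 1 library left out. PHGDH, PSPH, SHMT2, MTHFD2 and ALDH1L2 stayed above 0 in all 20 alternatives. CBS passed in 16 of 20 and PYCR1 in 10 of 20.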

Other observations

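Among tested genes with a mean log2 CPM of at least 1, those whose deviations from the group means most resembled the mean of the 9 standardised enzymes over 11 libraries were CDKN1B (r = 0.89, rho = 0.92), EPRS1 (r = 0.88, rho = 0.86), GTF2E1 (r = 0.86, rho = 0.82), ZNF148 (r = 0.85, rho = 0.84) and MEX3D (r = 0.84, rho = 0.75). CDKN1B encodes a cell cycle inhibitor and EPRS1 a tRNA synthetase. With the outermost libraries, vehicle replicate 004 and evexomostat replicate 003, left out, r was 0.94 for CDKN1B and 0.85 for EPRS1. Their log2 fold changes were -0.25 and 0.0045. These are descriptions over shared libraries, taken as the highest of 13059 genes.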
